A study of Mus musculus with 10 samples.

Results

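Tumours of TH-MYCN mice that had received a combination of an Aurora-A inhibitor and an ATR inhibitor were set against tumours of untreated mice, with both treatment times joined into 1 group. Across 14699 tested genes, 1 gene passed the test: Pif1, which encodes a DNA helicase of genome maintenance, was 1.87-fold higher in treated tumours and rose from 57.4 ± 1.93 (SD, n = 3) to 107 ± 13.2 (SD, n = 6) CPM (counts scaled to library size). Below that threshold, genes of mitosis and targets of p53 lay mostly higher in treated tumours, and genes of endoplasmic reticulum chaperones and cholesterol synthesis lay mostly lower. The comparison uses 9 of the 10 libraries of the series. They are untreated libraries 1, 2 and 3, libraries 2, 3 and 4 of 24 h of treatment, and libraries 2, 3 and 4 of 5 days of treatment.

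TH-MYCN mice carry a human MYCN transgene under a tyrosine hydroxylase promoter and form neuroblastoma, a tumour of the sympathetic nervous system. All groups carry this transgene, and they differ in treatment. MLN8237 (alisertib) inhibits Aurora-A, a kinase of the mitotic spindle, and AZD6738 (ceralasertib) inhibits ATR, a kinase that responds to stalled replication forks. The sample titles give a combination for 24 h or 5 days, whereas the design text puts "or" between the drugs, and the sources used here give no age of the mice and no dose. Whether replicate libraries stem from different mice is not in the labels. Every p-value below therefore measures the spread between these libraries, which may be technical in part. Y-linked genes summed to 3.9 CPM in untreated library 2 and to 159 CPM in untreated libraries 1 and 3. These 3 libraries thus do not all repeat 1 RNA sample.

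The library left out, 5-day library 1, was chosen from the expression values themselves. Its mean Spearman correlation with the other libraries, across genes, was 0.74, and those of the 9 others lay between 0.944 and 0.954. It lay at 164.6 on the first principal component, which held 69.8% of the variance, and the others lay between -51.4 and 18.6. These values chose the libraries and are given as a description. Libraries held 5576926 to 5696436 counts, so that 3 counts correspond to about 0.527 to 0.538 CPM, a limit that covers counting error only. The label of the tissue was checked on 21 genes of adrenergic (sympathetic) identity, whose summed level was 3442 to 4993 CPM in the 9 libraries and 1169 CPM in the library left out. Th, the enzyme that starts catecholamine synthesis, was present at 69.6 to 205 CPM in the 9 libraries. Mycn was at 82.0 to 114 CPM in untreated and 86.0 to 108 CPM in treated libraries, and the 3 groups overlapped. Any transgene reads that map to mouse Mycn are part of these values.

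RNA of other tissues stood out in single libraries. The sums in 5-day library 2 were 1763 CPM for adrenal cortex, 368 CPM for hepatocyte, 437 CPM for skeletal muscle and 1430 CPM for adipocyte markers. Skeletal muscle markers were at 156 CPM in 5-day library 4 and kidney tubule markers at 102 CPM in untreated library 3. For adrenal cortex, 5-day library 3 had 104 CPM, whereas the 7 remaining libraries had 11.3 to 15.1 CPM. A list of 4 Y-linked genes, chosen after their values were seen, summed to 3.9 CPM in untreated library 2 and to 135 to 212 CPM in the 8 other libraries. Their part in the results below was not tested.

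Aurora-A builds the spindle poles and acts with the kinase PLK1 to drive cells into mitosis. ATR, through the kinase CHK1, holds back mitotic entry while DNA is still being copied, and it limits the firing of replication origins. Transcripts of mitotic genes accumulate in late G2 and mitosis under the control of factors such as MYBL2 and FOXM1, which act through CHR elements and NF-Y boxes. p53 switches on genes of arrest and cell death when DNA is damaged.

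Few single genes passed when all tested genes were adjusted together. With p-values of the quasi-likelihood test in edgeR, adjusted by Benjamini-Hochberg, 1 gene was higher and 0 were lower in treated tumours, which is 0.00680% of the genes tested. Without adjustment, 1193 genes (8.12%) had a p under 0.05, of which 644 were higher (4.38%) and 549 lower (3.73%), and 50.3% of all genes had a fold change above 0, while the median log2 fold change over all tested genes was 0.00. DESeq2 on the same libraries and genes called 140 genes, 88 higher and 52 lower, and Pif1 was among them, so the number of genes called depends on the tool. Of these 140 genes, 125 (78 higher and 47 lower) had no overlap between treated and untreated libraries. A change was taken as held at both times where a gene was called and all 6 treated libraries lay on 1 side of all 3 untreated libraries, and by edgeR Pif1 alone met this. Lack of overlap by itself was seen in 648 genes (4.41%), 300 above (2.04%) and 348 below (2.37%) the untreated libraries. Of these, 170 genes above (1.16%) and 133 below (0.905%) also had an unadjusted p under 0.05 at each time.

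**Figure D1:**
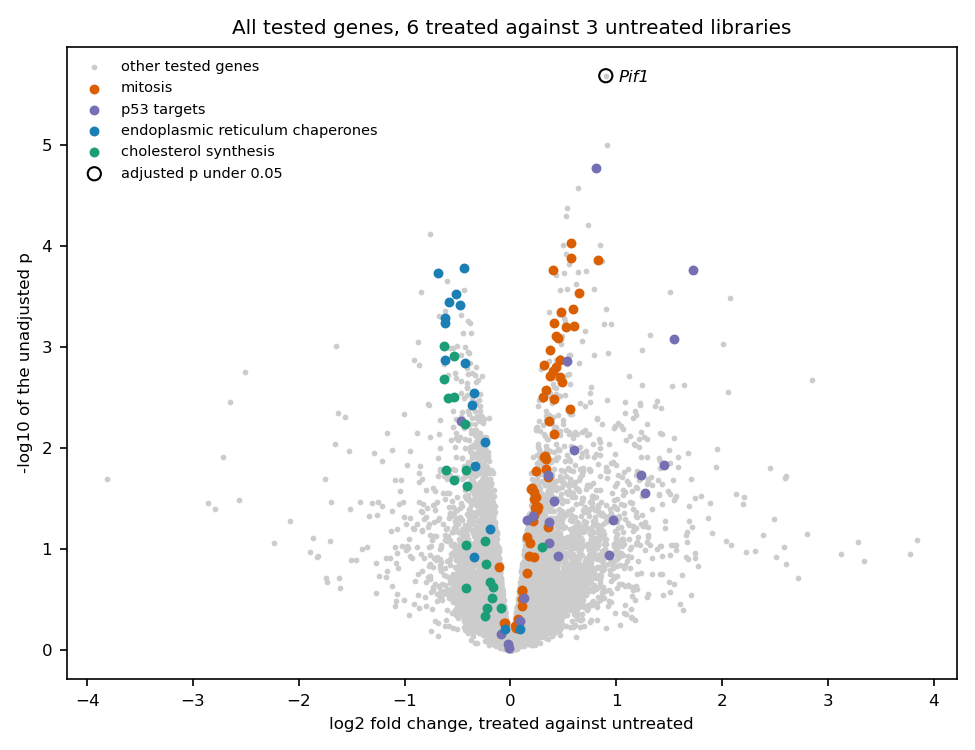
Each point is 1 of the 14699 tested genes, with the log2 fold change of 6 treated against 3 untreated libraries on the x axis and the negative log10 of the unadjusted p on the y axis. Pif1 (circled) is the gene with an adjusted p under 0.05, members of the mitosis list lie mostly on the right, and endoplasmic reticulum chaperones and cholesterol synthesis genes lie mostly on the left.

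Pif1 (ENSMUSG00000041064, chr9:65587160-65595967, plus strand of mm10) encodes a helicase that unwinds G-quadruplexes and other obstacles in front of replication forks. Untreated libraries 1, 2 and 3 held 56.4, 59.6 and 56.1 CPM. Libraries 2, 3 and 4 at 24 h held 106, 101 and 133 CPM, and those at 5 days held 104, 103 and 95.2 CPM. The lowest treated library thus lay above the highest untreated one, and 24 h library 4 stood above the others. The log2 fold change was 0.90 ± 0.11 (SE), with an adjusted p = 0.0302 (edgeR, Benjamini-Hochberg). At 24 h alone the difference was 0.98 (adjusted p = 0.0297) and at 5 days 0.81 (adjusted p = 0.202) on the log2 scale, both from edgeR with Benjamini-Hochberg adjustment and against the same 3 untreated libraries. The 2 times did not differ beyond the spread (log2 difference -0.17 ± 0.11 SE, edgeR adjusted p = 0.716). With any 1 library left out, the log2 fold change of Pif1 was 0.83 to 0.94, and the adjusted p moved between 0.00486 and 0.347 (edgeR, Benjamini-Hochberg). That the direction stayed the same was set in advance, since treated and untreated libraries did not overlap. The call was lost without untreated library 1 (adjusted p = 0.0637), untreated library 2 (0.127), untreated library 3 (0.347), 24 h library 2 (0.1), 24 h library 3 (0.0639) or 5-day library 3 (0.0531), all by edgeR. It was also lost in edgeR without the robust option, where the adjusted p rounded to 0.05 and was not under it. In 5-day library 1, outside the comparison, Pif1 was at 29.2 CPM, below every untreated library, and with that library included its log2 fold change was 0.74 (edgeR adjusted p = 0.876). With 5-day libraries 2 and 4 removed, an alternative chosen after seeing the data, the log2 fold change of Pif1 was 0.95 (edgeR adjusted p = 0.0551) and no gene was called.

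Other genes with the smallest p and no overlap were spread over several functions, and none of them passed the edgeR test. They were chosen after their values were seen. Cenpl encodes a protein of the inner kinetochore (ENSMUSG00000026708, chr1:161070713-161086724, plus strand). It was at 24.0, 17.7 and 18.3 CPM in untreated libraries, at 38.5, 38.8 and 38.6 CPM at 24 h and at 31.8, 39.9 and 37.8 CPM at 5 days. The 24 h libraries were nearly equal, and 5-day library 2 was the lowest treated one. Its log2 fold change was 0.91 ± 0.13 (SE, edgeR adjusted p = 0.074). Without untreated library 1 or without 5-day library 2, Cenpl passed (edgeR adjusted p = 0.0237 and 0.0366). Sun2 spans the inner nuclear membrane and ties it to the cytoskeleton. Its untreated libraries held 90.3 to 110 CPM and its treated libraries 134 to 158 CPM. Cdca2, which recruits protein phosphatase 1 to chromosomes as mitosis ends, was at 81.6 to 85.6 CPM in untreated and at 110 to 132 CPM in treated libraries. Arhgap11a, a mitotic GTPase-activating protein, was at 219 to 248 CPM against 284 to 367 CPM in treated libraries. Cdc42ep4, an effector of the GTPase Cdc42, was at 31.9 to 39.7 CPM against 49.7 to 59.6 CPM. The co-repressor Tle3 was at 27.0 to 34.9 CPM against 41.9 to 66.7 CPM. Counts of Kifc5b, at 91.4 to 97.3 CPM against 119 to 151 CPM, are uncertain because this gene is nearly identical to the mitotic kinesin gene Kifc1.

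Genes of mitosis lay higher in treated tumours across most of a list of 60 tested members, although none of them passed over all genes. Of 62 listed, Kif18b and Prc1 had 0 counts in the 9 libraries, which need not mean absent transcripts. At an unadjusted p under 0.05, 42 members were higher and 0 lower (4.38% of all tested genes were higher). All 6 treated libraries lay above all untreated ones in 22 members and below in 0, that is in 36.7% against 2.04% of all tested genes. This list and the others were written with earlier results of these data known, so such shares describe the members and test nothing. The median log2 fold change was 0.32 over both times, 0.32 at 24 h and 0.26 at 5 days, where all tested genes had medians of 0.00. By library, the median of the members relative to the untreated mean was -0.08 to 0.05 in untreated and 0.18 to 0.44 in treated libraries, so the groups did not overlap. DESeq2 called 21 members, all higher, where it called 88 of all 14699 tested genes higher. The median was 0.31 with 5-day libraries 2 and 4 removed. In 5-day library 1 all 60 members lay below the range of the untreated libraries, and with that library included the median was 0.17.

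Among the members, Aurka, which encodes the target of MLN8237, was at 129, 142 and 125 CPM in untreated libraries, at 200, 178 and 232 CPM at 24 h and at 211, 174 and 186 CPM at 5 days. All 6 treated libraries were higher than the untreated ones, and the log2 fold change was 0.57 ± 0.10 (SE, edgeR adjusted p = 0.117). Psrc1, a spindle protein that helps chromosomes to congress, was at 68.8 ± 5.51 CPM (SD, n = 3) in untreated and 122 ± 22.3 CPM (SD, n = 6) in treated libraries. Kif18a, a kinesin that damps chromosome movement at the metaphase plate, was at 46.1 to 57.3 CPM against 64.4 to 83.8 CPM. Cep55, which acts at the final cut between daughter cells, was at 44.5 to 50.01 CPM in untreated libraries. It was at 84.7, 77.9 and 83.1 CPM at 24 h and at 68.8, 57.8 and 63.3 CPM at 5 days, so that the 5-day libraries lay between the other groups. Cep55 rose at 24 h (log2 fold change 0.82, edgeR adjusted p = 0.0297) and was at 0.45 on that scale at 5 days (edgeR adjusted p = 0.243). The call at 24 h was lost when any untreated or any 24 h library was left out and when 5-day library 1 was included. Cep55 was not called with both times pooled (adjusted p = 0.128), and the difference between the times was not called (adjusted p = 0.602, both edgeR). The activator of the anaphase-promoting complex Cdc20 was at 247 to 265 CPM against 304 to 358 CPM, cyclin B1 (Ccnb1) at 148 to 178 CPM against 193 to 234 CPM and the kinase Plk1 at 205 to 230 CPM against 245 to 309 CPM. Cdk1, the kinase that cyclin B1 activates, was at 207 to 225 CPM against 184 to 221 CPM and overlapped widely (log2 fold change -0.05). It was 1 of 3 members with a fold change below 0. Ccnb1, Plk1 and Cdk1 were chosen after their values were seen.

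**Figure D2:**
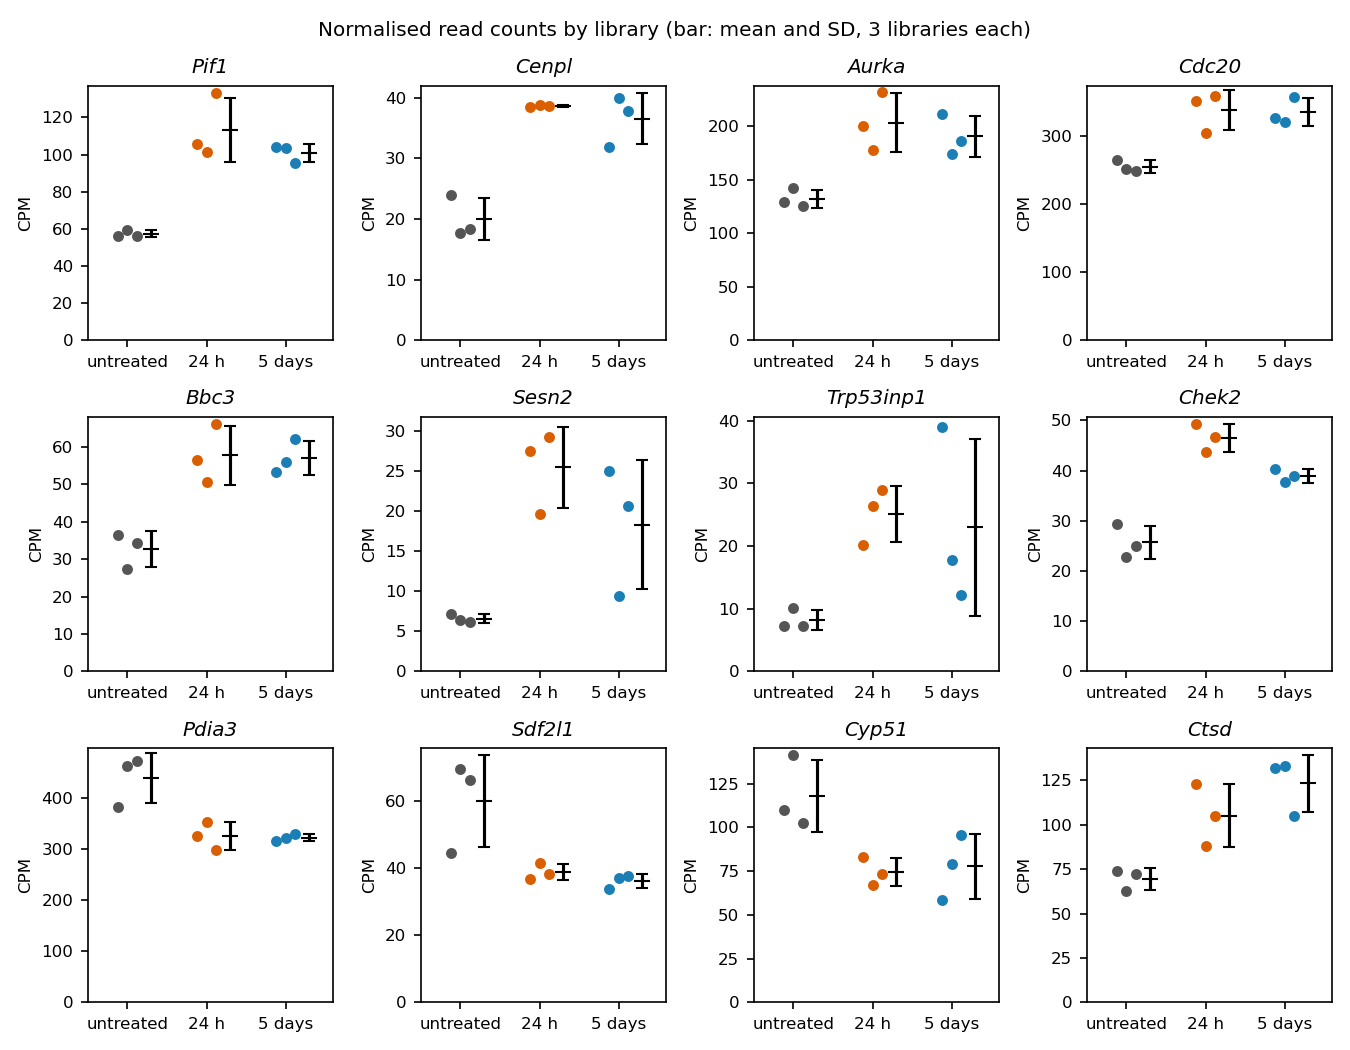
CPM by library for 12 genes, with 1 point per library (3 untreated, 3 at 24 h, 3 at 5 days) and a bar for the mean and SD of each group. In all 12 panels the 6 treated libraries lie on 1 side of the 3 untreated libraries: Pif1, Cenpl, Aurka, Cdc20, Bbc3, Sesn2, Trp53inp1, Chek2 and Ctsd are higher in treated tumours, and Pdia3, Sdf2l1 and Cyp51 are lower.

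Promoters of mitotic genes carry short elements that bind the complexes of MYBL2 and FOXM1 (the CHR element, TTTGAA or TTCGAA) and the trimeric factor NF-Y (CCAAT). These were looked for on both strands in RefSeq promoters of GRCm38.p6, from 250 bases before to 50 bases after each start. A CHR element was in 38 of the 55 promoters of the mitosis list (69.1%), against 14% of the 12964 promoters of tested genes and 19.2% of all 32851 promoters. Over the 300 genes with all treated libraries above it was in 29.3% of promoters, and over the 348 genes below in 12.9%. An NF-Y box was in 74.5% of promoters of the mitosis list and in 37.7% of those of tested genes. A match is a description of the letters and not a bound site. Of the genes whose treated libraries did not overlap the untreated ones, the promoters of Cenpl (chr1:161070517-161070816, plus strand), Aurka (chr2:172370521-172370820, minus strand) and Cdc20 (chr4:118437294-118437593, minus strand) show how these elements lie near the start site. Capitals mark CHR elements and NF-Y boxes on either strand, and the sequences run 5′ to 3′ along the gene.
Cenpl: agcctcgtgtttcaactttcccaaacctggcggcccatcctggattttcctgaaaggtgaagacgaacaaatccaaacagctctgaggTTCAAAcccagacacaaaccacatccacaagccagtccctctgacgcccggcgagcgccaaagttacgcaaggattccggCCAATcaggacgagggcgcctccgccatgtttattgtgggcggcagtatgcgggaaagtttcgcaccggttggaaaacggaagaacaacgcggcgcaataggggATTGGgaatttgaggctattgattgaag
Aurka: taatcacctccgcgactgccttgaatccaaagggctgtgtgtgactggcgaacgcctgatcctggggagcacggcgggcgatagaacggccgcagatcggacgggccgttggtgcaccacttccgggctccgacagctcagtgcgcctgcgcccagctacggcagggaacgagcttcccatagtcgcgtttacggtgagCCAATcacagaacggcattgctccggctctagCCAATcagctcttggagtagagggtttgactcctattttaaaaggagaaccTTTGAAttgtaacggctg
Cdc20: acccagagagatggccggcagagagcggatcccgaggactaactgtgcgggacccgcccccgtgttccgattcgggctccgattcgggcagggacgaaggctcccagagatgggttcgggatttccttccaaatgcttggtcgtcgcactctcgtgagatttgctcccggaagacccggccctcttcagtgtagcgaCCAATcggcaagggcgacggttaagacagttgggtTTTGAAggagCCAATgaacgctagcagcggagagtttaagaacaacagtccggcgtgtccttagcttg
In Cdc20 both NF-Y boxes and the CHR element lay within 53 bases before the start site. In Aurka the NF-Y boxes began 51 and 19 bases before the start site and the CHR element began at base 32 after it. In Cenpl the CHR element was 162 bases before the start and read on the other strand.

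Genes of centrosomes and centrioles were looked at because several stood among the genes with the smallest p, so this list of 20 tested genes was chosen after its values were seen. Of them, 8 were higher and 0 lower at an unadjusted p under 0.05, and 6 had all treated libraries above the untreated ones, against 4.38% and 2.04% of all tested genes. Since the list was picked for such genes, nothing is read from these counts. The median log2 fold change was 0.21, and 0.13 with 5-day library 1 included. Its members Cntrl and Odf2 were picked in the same way. Cntrl, which encodes a centriole protein needed for the last step of cell division, was at 56.3 to 78.8 CPM against 85.9 to 114 CPM. Odf2, a protein of centriole appendages, was at 156 to 157 CPM in the 3 untreated libraries and at 184 to 270 CPM in treated ones. Replication-dependent histones, of which 22 of 69 could be tested, had 6 members higher and 0 lower at an unadjusted p under 0.05 (4.38% of all tested genes were higher) and a median of 0.32, which was 0.20 without untreated library 3. The linker histone gene Hist1h1c was at 9.91, 6.56 and 7.13 CPM in untreated libraries, at 13.4, 16.5 and 17.2 CPM at 24 h and at 39.8, 23.0 and 13.4 CPM at 5 days, with 5-day library 2 far above the rest. Histone H2A genes such as Hist1h2ad (20.5 to 33.3 CPM against 32.9 to 42.0 CPM), Hist1h2ai (16.7 to 22.3 CPM against 21.9 to 31.6 CPM) and Hist1h2ao (60.4 to 84.6 CPM against 85.3 to 113 CPM) resemble each other closely and are mostly transcribed without a poly(A) tail, so their counts are uncertain.

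Targets of p53 had a median log2 fold change of 0.41 over 23 tested members, 0.47 at 24 h and 0.25 at 5 days. At an unadjusted p under 0.05, 11 were higher and 1 was lower (4.38% and 3.73% of all tested genes were), and 5 had all treated libraries above the untreated ones (2.04% of all tested genes did). None passed over all genes with edgeR, and DESeq2 called 5, all higher, where it called 88 of all 14699 tested genes higher. Median levels by library, relative to the untreated mean, were -0.08 to 0.15 in untreated libraries, 0.40 to 0.74 at 24 h and 0.58, 0.12 and 0.12 in 5-day libraries 2, 3 and 4. The 24 h libraries thus lay apart from the untreated ones as a list, whereas 5-day libraries 3 and 4 lay within their range.

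The p53 targets differed in how steady they were. The gene of the pro-apoptotic BH3 protein PUMA, Bbc3, was at 36.6, 27.3 and 34.2 CPM in untreated libraries, at 56.5, 50.6 and 66.1 CPM at 24 h and at 53.4, 55.8 and 62.0 CPM at 5 days. Both times were alike and apart from the untreated libraries, with a log2 fold change of 0.81 ± 0.12 (SE, edgeR adjusted p = 0.083). Sesn2, a stress-induced brake on mTORC1, was at 7.21, 6.38 and 6.24 CPM in untreated libraries, at 27.5, 19.7 and 29.3 CPM at 24 h and at 25.1, 9.36 and 20.6 CPM at 5 days. All treated libraries were higher, and 5-day library 3 was closest to the untreated ones. Without that library Sesn2 was the gene called in place of Pif1. Trp53inp1, a cofactor of p53 in cell death, was at 7.21 to 10.1 CPM in untreated and 12.2 to 39.0 CPM in treated libraries. Ddit4, another brake on mTORC1, was at 24.1 to 30.6 CPM against 33.4 to 45.8 CPM. Cdkn1a, the cell cycle inhibitor p21, overlapped: 10.5 to 27.5 CPM in untreated and 23.5 to 71.6 CPM in treated libraries, with 5-day library 4 below untreated library 2. Mdm2, the ubiquitin ligase of p53, was at 97.0 to 107 CPM against 106 to 119 CPM and also overlapped.

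**Figure D3:**
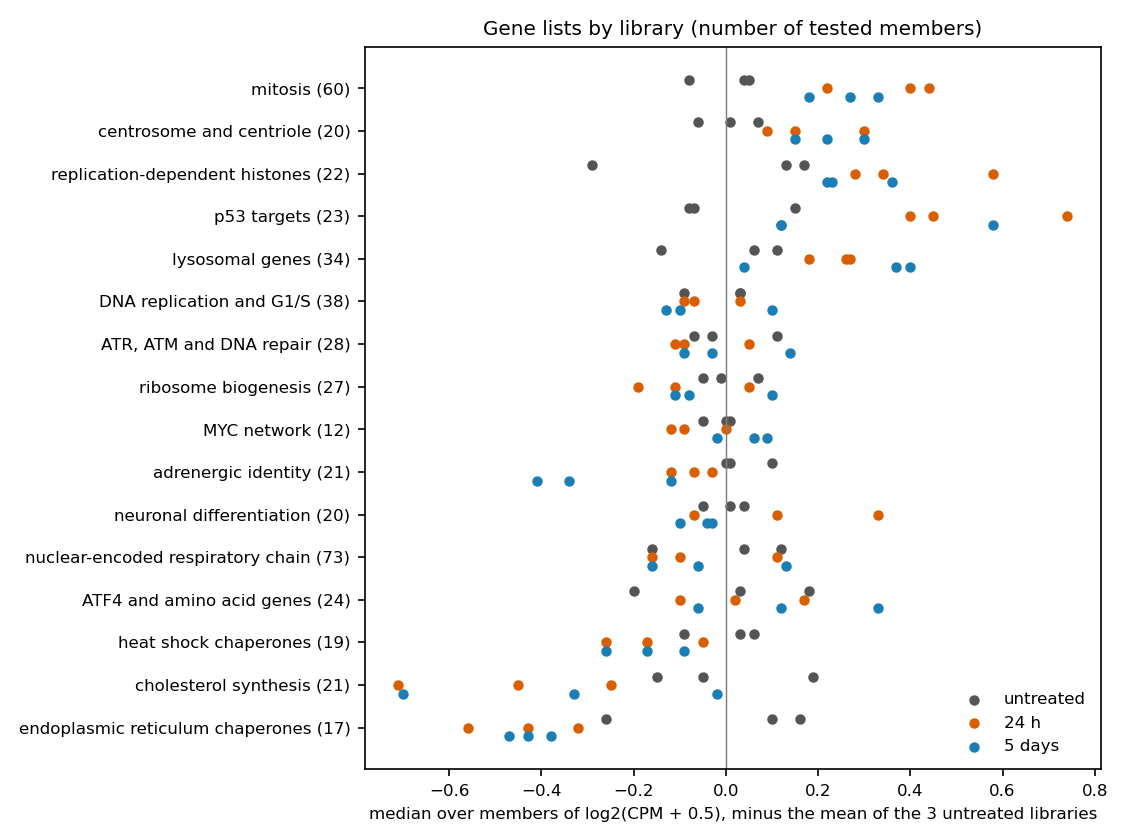
Each row is a gene list with its number of tested members, and each point is 1 library, placed at the median over members of log2(CPM + 0.5) minus the mean of the 3 untreated libraries. Points of treated libraries lie to the right of all untreated points for mitosis and to the left for endoplasmic reticulum chaperones, while replication, DNA repair and ribosome biogenesis overlap around 0.

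Checkpoint and replication genes moved less as lists than mitotic genes. Of 28 tested genes of ATR, ATM and DNA repair, 2 were higher and 1 was lower at an unadjusted p under 0.05, and the median log2 fold change was -0.02. These counts lie near the shares over all tested genes (4.38% and 3.73%) and are no result about the list. The higher genes were Pif1 and Chek2, which encodes the kinase below ATM. Chek2 was at 29.4, 22.9 and 24.9 CPM in untreated libraries, at 49.2, 43.6 and 46.7 CPM at 24 h and at 40.4, 37.6 and 38.9 CPM at 5 days. All treated libraries lay above the untreated ones, with a log2 fold change of 0.73 ± 0.12 (SE, edgeR adjusted p = 0.117). The lower gene was Chek1, the kinase below ATR, at 55.5, 63.1 and 56.1 CPM in untreated libraries and 39.0 to 53.8 CPM in treated ones (log2 fold change -0.32 ± 0.11 SE, edgeR adjusted p = 0.449). Atr itself was at 46.1 to 60.8 CPM against 38.9 to 58.6 CPM, with full overlap.

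Of 38 tested genes of DNA replication and G1/S, 0 were higher and 3 lower at an unadjusted p under 0.05 (3.73% of all tested genes were lower), with a median of -0.03. Cdc6, which loads the replicative helicase at origins, was at 46.7, 57.6 and 43.6 CPM in untreated libraries. It was at 34.9, 29.6 and 31.8 CPM at 24 h and at 28.1, 33.7 and 36.6 CPM at 5 days. All treated libraries were lower, with a log2 fold change of -0.60 ± 0.12 (SE, edgeR adjusted p = 0.128). Mcm4, a subunit of that helicase, was at 158 to 163 CPM against 114 to 158 CPM, and the clamp loader gene Rfc3 at 73.0 to 92.1 CPM against 71.2 to 79.1 CPM. Cyclin E2 (Ccne2) was at 14.2 to 18.4 CPM against 6.46 to 16.8 CPM. In the MYC network (12 tested genes, median -0.02), Mxd3, a MAX partner without transactivating function, was at 35.6 to 48.3 CPM against 50.5 to 58.2 CPM. Max was at 97.5 to 105 CPM against 77.6 to 96.0 CPM, and neither Mxd3 nor Max overlapped. Myc was low, at 2.84 to 6.06 CPM against 1.25 to 3.38 CPM, and its values overlapped.

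Genes of chaperones of the endoplasmic reticulum lay lower in treated tumours. These proteins fold secreted and membrane proteins, and their genes are switched on together by the unfolded protein response. Of 17 tested members, 13 were lower and 0 higher at an unadjusted p under 0.05 (3.73% of all tested genes were lower). All treated libraries lay below all untreated ones in 7 members (41.2%, against 2.37% of all tested genes). This list, too, was written with earlier results of these data known. The median log2 fold change was -0.43 over both times, at 24 h and at 5 days. None passed over all genes with edgeR, and DESeq2 called 10, all lower, where it called 52 of all 14699 tested genes lower. By library the median relative to the untreated mean was -0.26, 0.10 and 0.16 in untreated libraries 1, 2 and 3, and -0.56 to -0.32 in treated ones. Untreated library 1 was thus nearest to the treated libraries. Without it, edgeR called 6 genes, of which 5 were lower (Chordc1, Dnajc3, Hspa5, Pdia6 and Sdf2l1) and 1 was higher (Cenpl).

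Pdia3, a disulphide isomerase, was at 383, 463 and 473 CPM in untreated libraries, at 325, 355 and 299 CPM at 24 h and at 316, 322 and 330 CPM at 5 days. All treated libraries were lower and within a narrow range, with a log2 fold change of -0.44 ± 0.08 (SE, edgeR adjusted p = 0.117). Sdf2l1, which works with the chaperone BiP, was at 44.3, 69.5 and 66.1 CPM in untreated libraries and at 33.8 to 41.4 CPM in treated ones. Hspa5, which encodes BiP, the main chaperone of this compartment, was at 499, 766 and 899 CPM in untreated and 420 to 513 CPM in treated libraries, so that untreated library 1 fell among the treated ones. Hspa5 was chosen after its values were seen, as were Manf, Xbp1, Pdia4 and Dnajc3. Xbp1, a transcription factor of the unfolded protein response, was at 90.6 to 143 CPM against 67.4 to 89.2 CPM. The isomerase genes Pdia6 (180 to 253 CPM against 147 to 177 CPM) and Pdia4 (107 to 167 CPM against 75.1 to 107 CPM) did not overlap, nor did Creld2 (51.4 to 72.7 CPM against 37.9 to 49.9 CPM) and Manf (132 to 164 CPM against 97.7 to 126 CPM). Dnajc3, a co-chaperone of BiP outside the list, was at 72.6 to 120 CPM against 51.0 to 69.9 CPM. In 5-day library 1, 11 of the 17 genes lay above the untreated range and 3 below it. The list's median was -0.25 with that library included and -0.43 with 5-day libraries 2 and 4 removed.

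The endoplasmic reticulum stress element, through which ATF6 and XBP1 act, joins an NF-Y box to CCACG with 9 bases between. This element was searched after the other results had been seen. It was in 6 of the 15 RefSeq promoters of the chaperone list (40%), against 17 of 12964 promoters of tested genes (0.131%) and 0.119% of all promoters. Part of the element is an NF-Y box, which alone was in 14 of the 15 (93.3%). Creld2 (chr15:88819396-88819695, plus strand of GRCm38.p6) and Pdia6 (chr12:17266339-17266638, plus strand) are shown because both lay lower in all treated libraries and hold the full element, in capitals. In Creld2 it reads on the other strand.
Creld2: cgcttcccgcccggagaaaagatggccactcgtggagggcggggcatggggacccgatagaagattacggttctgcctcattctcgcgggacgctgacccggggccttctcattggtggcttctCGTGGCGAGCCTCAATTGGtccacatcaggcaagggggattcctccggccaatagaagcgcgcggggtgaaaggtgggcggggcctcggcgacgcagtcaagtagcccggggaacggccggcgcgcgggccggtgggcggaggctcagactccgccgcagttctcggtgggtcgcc
Pdia6: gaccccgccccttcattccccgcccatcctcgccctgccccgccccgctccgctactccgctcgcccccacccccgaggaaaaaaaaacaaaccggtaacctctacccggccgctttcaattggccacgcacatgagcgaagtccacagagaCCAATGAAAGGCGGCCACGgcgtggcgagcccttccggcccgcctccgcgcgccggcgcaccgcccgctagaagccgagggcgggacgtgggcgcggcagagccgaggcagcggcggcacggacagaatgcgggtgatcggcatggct
It lay 126 to 108 bases before the start site in Creld2 and 98 to 80 bases before it in Pdia6.

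Cytosolic heat shock chaperones were grouped after their values had been seen. Of 19 tested, 7 were lower and 0 higher at an unadjusted p under 0.05, 3 had all treated libraries below the untreated ones, and the median log2 fold change was -0.17. Of all tested genes 3.73% were lower and 2.37% lay below. The genes named here were chosen likewise. Chordc1, a co-chaperone of HSP90, was at 94.4, 147 and 135 CPM in untreated libraries, at 83.8, 73.2 and 71.4 CPM at 24 h and at 82.4, 65.0 and 69.0 CPM at 5 days. All treated libraries were lower, with a log2 fold change of -0.76 ± 0.13 (SE, edgeR adjusted p = 0.117). Hspa8, the constitutive HSP70, was at 1282 to 1475 CPM against 954 to 1194 CPM. Its co-chaperone Dnaja1 was at 152 to 179 CPM against 115 to 142 CPM. No treated library of Hspa8 or Dnaja1 reached an untreated one. Hsph1, a nucleotide exchange factor of HSP70, overlapped, at 342 to 554 CPM against 270 to 384 CPM. The HSP90 genes overlapped as well and had small fold changes: Hsp90aa1 was at 1182 to 1291 CPM against 1020 to 1262 CPM (log2 fold change -0.10), and Hsp90ab1 at 4667 to 4803 CPM against 4164 to 4955 CPM (-0.07).

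Genes of cholesterol synthesis had a median log2 fold change of -0.42 over 21 tested members, -0.47 at 24 h and -0.31 at 5 days. At an unadjusted p under 0.05, 10 were lower (3.73% of all tested genes were) and 0 higher, and 6 had all treated libraries below the untreated ones (28.6%, against 2.37%). None passed over all genes with edgeR, and DESeq2 called 4, all lower, where it called 52 of all 14699 tested genes lower. By library the median relative to the untreated mean was -0.15 to 0.19 in untreated libraries, -0.25, -0.71 and -0.45 at 24 h and -0.70, -0.33 and -0.02 at 5 days. 5-day library 4 thus lay within the untreated range. Cyp51, which removes a methyl group from lanosterol, was at 110, 141 and 102 CPM in untreated libraries, at 82.9, 67.3 and 73.1 CPM at 24 h and at 58.5, 79.2 and 95.4 CPM at 5 days. All treated libraries were lower, with a log2 fold change of -0.63 ± 0.14 (SE, edgeR adjusted p = 0.194). Hmgcs1, an early enzyme of the pathway, was at 118 to 160 CPM against 71.3 to 112 CPM, Idi1, which isomerises isopentenyl diphosphate, at 44.7 to 62.4 CPM against 25.5 to 40.6 CPM, and the sterol carrier gene Stard4 at 58.4 to 67.2 CPM against 32.3 to 51.6 CPM.

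**Figure D4:**
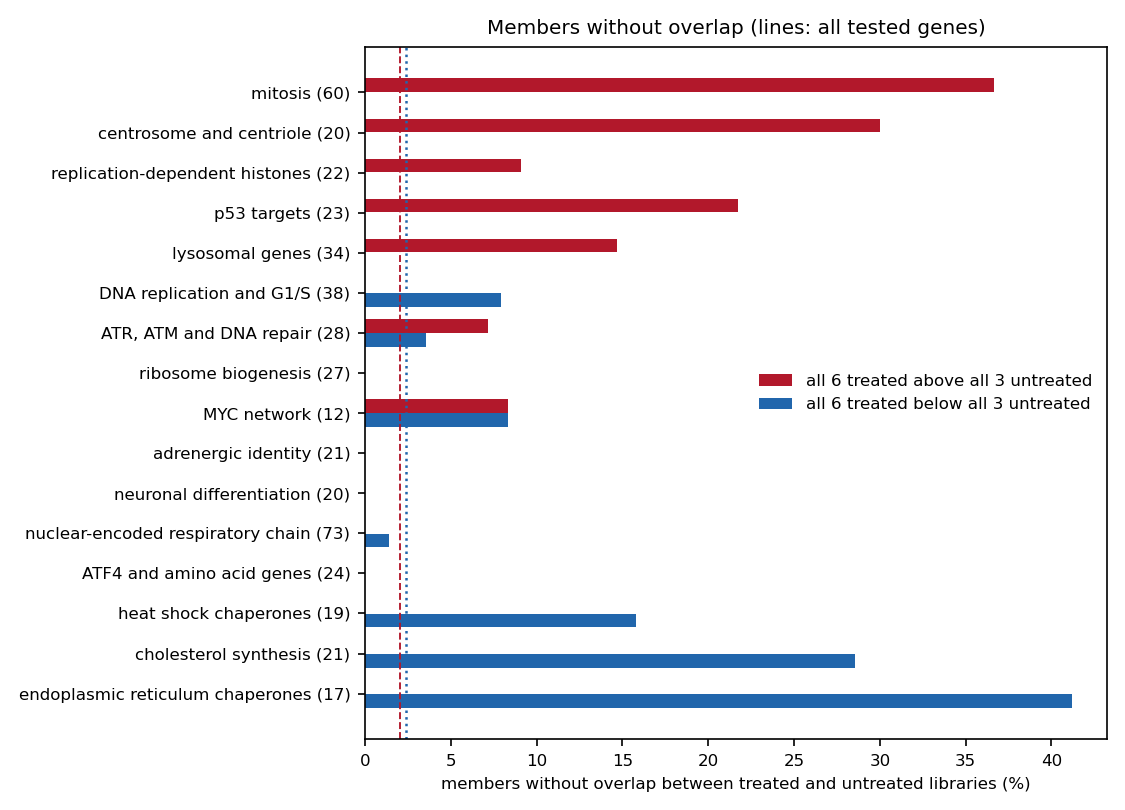
Bars give the share of tested members (in %) whose 6 treated libraries all lie above (red) or below (blue) the 3 untreated libraries, for 16 gene lists, and the dashed and dotted lines give the shares over all tested genes (2.04% above, 2.37% below). Mitosis has 36.7% of members above and endoplasmic reticulum chaperones 41.2% below. The lists were written with earlier results of these data known.

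Lysosomal genes and markers of macrophages lay mostly higher in treated tumours. Bulk RNA cannot tell more cells of a type from more RNA per cell. Of 34 lysosomal genes, 12 were higher and 0 lower at an unadjusted p under 0.05 (4.38% of all tested genes were higher), with a median of 0.25. DESeq2 called 6 of them, all higher, where it called 88 of all 14699 tested genes higher. By library the median relative to the untreated mean was -0.14 to 0.11 in untreated libraries and 0.18 to 0.40 in 5 treated libraries, while 5-day library 4, at 0.04, lay inside the untreated range. With 5-day library 1 included, in which all 34 genes lay above the untreated range, the median was 0.91. With any 1 library left out it was 0.21 to 0.31. Ctsd, the lysosomal protease cathepsin D, was at 74.1, 62.6 and 72.1 CPM in untreated libraries, at 123, 87.7 and 105 CPM at 24 h and at 132, 133 and 105 CPM at 5 days. All treated libraries were higher, with a log2 fold change of 0.71 ± 0.13 (SE, edgeR adjusted p = 0.117). The cathepsin gene Ctsb was at 546 to 825 CPM against 807 to 1116 CPM, Gusb at 59.8 to 75.9 CPM against 76.7 to 112 CPM and Ctsa at 86.4 to 112 CPM against 111 to 139 CPM. Ctsb and Ctsa overlapped in 5-day library 4, and Gusb did not overlap. Promoters of the lysosomal list held an E box (CACGTG) in 32.3% of 31 cases, against 9.8% of those of tested genes.

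The 19 macrophage markers summed to 619 to 1070 CPM in untreated and 1038 to 1761 CPM in treated libraries, and the 15 markers of lipid-associated macrophages to 831 to 1107 CPM and 1156 to 3496 CPM. Of the first list 9 and of the second 7 members were higher at an unadjusted p under 0.05, with 0 lower in either and no marker at 0 (4.38% of all tested genes were higher). Fold changes were below 0 in 3 markers of the first list, down to -0.91 on the log2 scale, and in 1 of the second (-0.02). The lists had medians of 0.60 and 0.95, and of 1.85 and 2.32 with 5-day library 1 included. With any 1 library left out they were 0.40 to 0.83 and 0.65 to 1.17, both lowest without untreated library 2. Without 5-day library 2 the second was 0.69. 5-day library 4 had the lowest treated sum in both lists and lay within the untreated range for the first. The antibacterial enzyme gene Lyz2 was at 532, 299 and 418 CPM in untreated libraries, at 743, 794 and 735 CPM at 24 h and at 932, 965 and 561 CPM at 5 days, without overlap. Gpnmb, a glycoprotein of lipid-laden macrophages, was at 97.0 to 124 CPM against 128 to 395 CPM and did not overlap. Trem2, a lipid-sensing receptor, was at 5.50 to 9.26 CPM against 6.09 to 24.9 CPM, the protease gene Mmp12 at 15.1 to 24.0 CPM against 15.4 to 84.5 CPM and the scavenger receptor gene Msr1 at 16.1 to 22.9 CPM against 17.9 to 50.6 CPM. Lyz2, Trem2 and Msr1 were chosen after their values were seen. In each of Trem2, Mmp12 and Msr1 the lowest treated library was 5-day library 4. The list medians of mitotic genes and of endoplasmic reticulum chaperones in 5-day library 4 were 0.33 and -0.38. The part of macrophage markers in the lysosomal, mitotic, chaperone and other results was not tested.

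Schwann cell and glial markers, of which 7 of 11 could be tested, had 4 members higher at an unadjusted p under 0.05 (4.38% of all tested genes were) and a median of 1.04. Their sum was 98.3 to 111 CPM in untreated and 112 to 153 CPM in treated libraries, and the marker Gfap was at 0. Sox10, the factor of the glial lineage, was at 1.80, 2.48 and 2.32 CPM in untreated libraries, at 5.999 to 15.1 CPM at 24 h and at 11.9, 9.19 and 1.08 CPM at 5 days. 5-day library 4 lay below the untreated libraries, and the 5 other treated libraries lay above them. The neuregulin receptor gene Erbb3 was at 0.90 to 4.26 CPM against 2.15 to 7.54 CPM. Sox10 and Erbb3 were chosen after their values were seen. Markers of endothelium, fibroblasts and pericytes had 0 members at an unadjusted p under 0.05. Fibroblast markers summed to 937 to 2814 CPM in untreated and 350 to 2188 CPM in treated libraries, with 5-day library 4 the lowest, and the median of that list turned from -0.59 to 0.75 without untreated library 3.

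**Figure D5:**
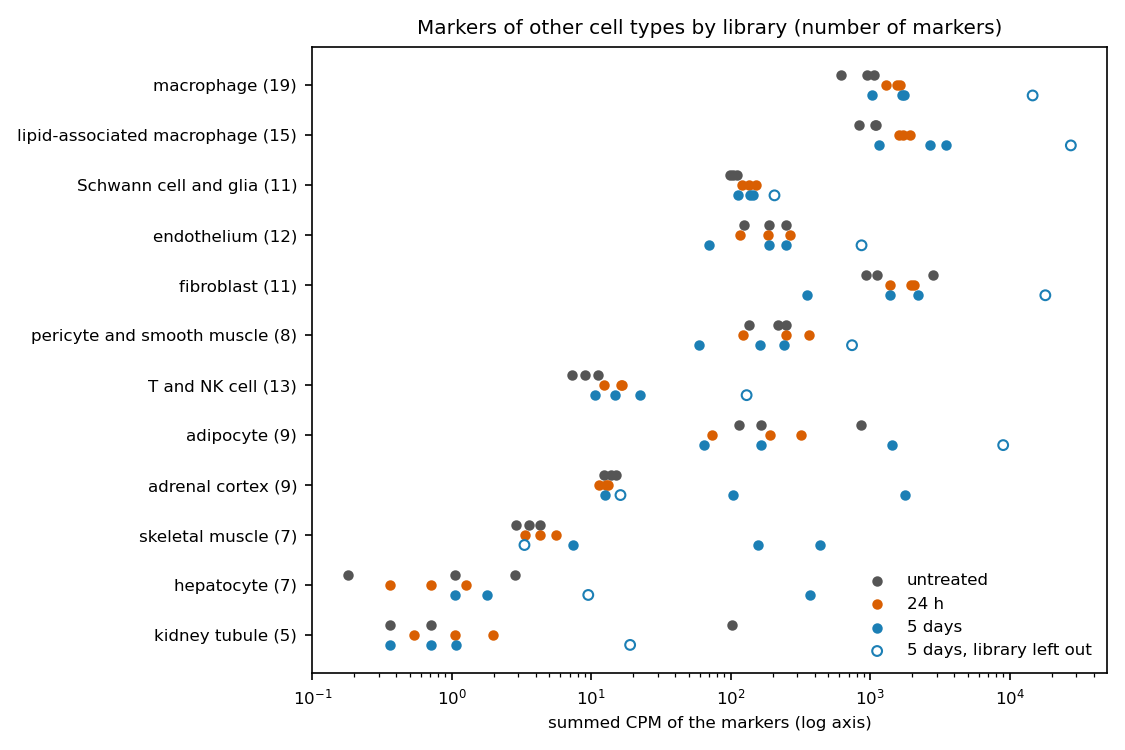
Summed CPM (log axis) of the markers of 12 cell types by library, with filled points for the 9 libraries compared and an open point for the 5-day library left out. Treated libraries lie mostly above untreated ones for macrophages, single libraries stand apart for adrenal cortex, hepatocyte, skeletal muscle and kidney, and the library left out is highest for macrophage, fibroblast and adipocyte markers.

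Interferon and MHC class I genes had high medians with a wide spread. All 20 tested interferon response genes had a fold change above 0 (median 0.72), yet 1 reached an unadjusted p under 0.05 and 0 were free of overlap. These counts lie near the shares over all tested genes (4.38% higher at that p, 2.04% above without overlap). The interferon median was 0.44 without untreated library 2, 1.37 without untreated library 3, 0.41 without 24 h library 3 and 2.78 with 5-day library 1 included. Their summed level was 88.1 to 152 CPM in untreated libraries, 88.4, 286 and 138 CPM at 24 h and 181, 206 and 76.5 CPM at 5 days, so that treated libraries lay on both sides of the untreated range. Ifit3, an interferon-induced antiviral gene, was at 0.71 to 1.43 CPM against 0.71 to 9.15 CPM. The MHC class I list of 9 tested genes (of 11 listed, with B2m and Psmb10 at 0 counts) had a median of 0.78. That median was 2.41 with 5-day library 1 included and 0.54 to 1.11 with any 1 library left out. At an unadjusted p under 0.05, 1 member was higher (4.38% of all tested genes were). This was Nlrc5, a transactivator of MHC class I genes, at 1.08 to 2.49 CPM against 3.35 to 8.79 CPM. The peptide transporter gene Tap1 was at 2.31 to 5.88 CPM against 2.51 to 26.0 CPM and overlapped.

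Several programmes had few members past an unadjusted p under 0.05, a level that 4.38% of all tested genes passed upward and 3.73% downward. Cytosolic ribosomal proteins (71 tested, median -0.05), nuclear-encoded respiratory chain genes (73, median -0.04), ribosome biogenesis genes (27, median -0.03) and ATF4 and amino acid genes (24, median 0.09) had 0 to 1 member on either side. Genes of adrenergic identity (21, median -0.16, and -0.06 without untreated library 1) had 16 members with a fold change below 0. By library their median relative to the untreated mean was 0.0 to 0.1 in untreated and -0.41 to -0.03 in treated libraries, without overlap. At an unadjusted p under 0.05, 0 were higher and 1 was lower. That member was Tbx2, a factor of the adrenergic circuit, at 98.2 to 151 CPM against 57.7 to 121 CPM. Hand2, a factor of sympathetic development, was at 27.5 to 33.7 CPM in untreated libraries, at 21.9, 33.7 and 25.3 CPM at 24 h and at 20.1, 21.2 and 19.4 CPM at 5 days, where the 5-day libraries lay below and the 24 h libraries overlapped.

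The 2 treatment times did not differ in any gene past the edgeR test. Against untreated tumours 24 h gave 2 called genes (Pif1 and Cep55, 0.0136%) by edgeR, and 1191 genes (8.10%) were at an unadjusted p under 0.05, 4.56% higher and 3.54% lower. At 5 days edgeR called 0 genes, and 1252 (8.52%) were at an unadjusted p under 0.05, 4.65% higher and 3.86% lower. Both comparisons share the untreated libraries. Between 5 days and 24 h edgeR called 0 genes, with 1140 (7.76%) at an unadjusted p under 0.05, 3.67% higher and 4.09% lower at 5 days, and a smallest adjusted p = 0.602. DESeq2 called 105, 77 and 20 genes in the 3 comparisons. Pooling hides genes that stood on opposite sides of the untreated libraries at the 2 times. Such genes were few: of 14699 tested, 15 lay above at 24 h and below at 5 days, and 7 lay the other way. At 24 h, 1082 genes lay above and 951 below all untreated libraries, and at 5 days 980 lay above and 1158 below. Gata3, a transcription factor of sympathetic neurons, was at 98.4, 99.0 and 92.4 CPM at 24 h, at 57.8, 65.6 and 71.3 CPM at 5 days and at 89.4, 75.9 and 85.7 CPM in untreated libraries. Nrip1, a nuclear receptor corepressor, was at 28.4, 23.9 and 28.9 CPM at 24 h, at 44.6, 48.1 and 42.3 CPM at 5 days and at 29.4 to 31.6 CPM in untreated libraries. The 3 groups did not overlap for Gata3 or Nrip1, and the difference between the times had an edgeR adjusted p = 0.602 for both.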

How the data were processed

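Polyadenylated RNA of flash-frozen tumours was sequenced, per the labels. Each deposited file gives 1 sample's raw read counts by Ensembl identifier. Totals of the 10 libraries lay in a narrow range, 5576926 to 5696436 counts. Whether reads were downsampled to a common depth is not in the labels. The submitters' processing notes name mm10, HISAT2, edgeR and TopHat2 2.1.1 and state no role for any. For the counter and its strand setting, nothing is given in the sources used here, so genes that overlap on opposite strands are uncertain. Widely expressed genes such as B2m, Rpl13 and Cox4i1 had 0 counts in all 9 libraries. A 0 therefore need not mean that a transcript is absent, and its cause was not tested.

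Of 54446 identifiers, 54409 had a GENCODE M21 symbol. In R 4.3.3, edgeR 4.0.16 was used with filterByExpr (minimum count 10, total 15), TMM scaling (factors 0.9902 to 1.009) and robust quasi-likelihood F tests. The model had 1 mean for 6 treated and 1 for 3 untreated libraries, and a model of 3 means gave each time. P-values were adjusted by Benjamini-Hochberg over 14699 genes and called under 0.05. The biological coefficient of variation was 19.4%. CPM values use TMM-scaled library sizes, and those of 5-day library 1 use a scaling over all 10 libraries. Folds are exact only as far as those scalings hold.

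Gene lists were described by counts and medians, without a test. The members of the comparison and the lists were chosen with earlier results of these data known. Named genes were the genes held at both times, up to 4 members of each pathway list by p, a fixed set and genes that differed between the times, and some that this rule names are not described. Genes outside it are marked as chosen after their values were seen. Some genes are not reported here. Promoters are RefSeq's for GRCm38.p6, matched by symbol for 10071 of the 14699 genes. The alternatives were DESeq2 1.42.0, edgeR with its size factors, omission of the count filter, a minimum mean of 5 CPM, a replicate block, 5-day library 1 included, fits of fewer groups, each library left out, and, chosen after seeing the data, limma 3.58.1 voom, edgeR without the robust option and 5-day libraries 2 and 4 removed. The edgeR and DESeq2 fits were tested on simulated data. Plots used Python 3.11.15 and matplotlib 3.10.9.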

Additional observations from a re-analysis of the deposited data

Results flagged for a closer look

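Among 93 groups of 6 treated values, 11 held 1 value far from the 5 others, where chance gives about 1 in 20. In single genes these were Pif1 in 24 h library 4 (133 CPM, next 106), Cenpl in 5-day library 2 (31.8 CPM, next 37.8), Hist1h1c in 5-day library 2 (39.8 CPM, next 23.0), Trem2 in 5-day library 4 (6.09 CPM against at least 17.996 CPM) and Th in 24 h library 4 (205 CPM, next 110). In summed markers, 5-day library 2 stood apart for neutrophil (3.38 CPM, next 1.79), adipocyte (1430 CPM, next 319), adrenal cortex (1763 CPM, next 104), hepatocyte (368 CPM, next 1.79) and skeletal muscle genes (437 CPM, next 156). Y-linked genes were lowest among treated libraries in 5-day library 4 (135 CPM, next 184).

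5-day library 1, left out of the comparison, held summed marker levels above the highest untreated library. Markers of lipid-associated macrophages summed to 27467 CPM (highest untreated 1107), of macrophages to 14614 CPM (1070), of fibroblasts to 18025 CPM (2814) and of adipocytes to 8986 CPM (866). Endothelium markers summed to 867 CPM (249), pericyte and smooth muscle markers to 741 CPM (248) and Schwann cell and glial markers to 206 CPM (111). Markers of T and NK cells summed to 130 CPM (11.2), of B and plasma cells to 42.7 CPM (2.88) and of neutrophils to 37.9 CPM (2.16). Adrenal cortex markers summed to 16.2 CPM (15.1) and hepatocyte markers to 9.52 CPM (2.85).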

How the results depend on the processing

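Counts of called genes depended on the tool and filter, and the causes were not tested. Treated against untreated and held at both times gave 140 and 125 genes with DESeq2, 5 and 5 with no filter, and 4 and 4 with limma voom with quality weights. They gave 0 and 0 with 5-day library 1 included, with edgeR without the robust option, and with 5-day libraries 2 and 4 removed. The count for 24 h was 105 with DESeq2, 8 with no filter, 7 with the untreated and 24 h libraries only, 4 with voom and 0 with 5-day library 1 included. The count for 5 days was 77 with DESeq2 and 9 with no filter, and that for 5 days against 24 h was 20 with DESeq2. Leaving out 1 library gave 0 to 6 genes for treated against untreated and for changes held at both times, 0 to 4 for 24 h, 0 to 6 for 5 days and 0 to 4 for 5 days against 24 h.

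Deviations of same-numbered libraries from their group means correlated at r = 0.21 and 0.26 between untreated and 24 h libraries. In same-numbered pairs with a 5-day library r was -0.37 to 0.05, and in pairs of unlike number -0.51 to 0.49. Since same-numbered libraries did not deviate together throughout, the replicate numbers were not taken as pairs. With the replicate number as a block, 0 genes were called for treated against untreated, held at both times or at 24 h. With this block Pif1 had a log2 fold change of 0.84 (edgeR adjusted p = 0.211) and Atr one of -0.06.

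For the 77 genes named, 1442 of 1459 recomputed log2 fold changes kept their direction. Many of these genes were chosen for a small p or for lack of overlap, so this count was largely set in advance and supports nothing. Of 741 recomputed list medians 62 changed sign, in 16 of 39 lists, among them ATR, ATM and DNA repair, the MYC network, cytosolic ribosomal proteins, the respiratory chain and fibroblast markers (0.75 without untreated library 3). The medians of mitosis, endoplasmic reticulum chaperones, p53 targets, cholesterol synthesis, lysosomal genes and macrophages were not among them. Those lists were written with earlier results of these data known, and the alternatives reuse mostly the same libraries. Their kept signs were thus largely set in advance as well and support nothing. With 5-day library 1 included Myc was at 0.42, Th at -0.02 and Atr at -0.09. Mycn was at 0 with voom, and with 5-day libraries 2 and 4 removed Gata3 was at 0.09 and Atr at -0.04. Leaving out 1 library moved Gata3 between -0.12 and 0.03, Mycn between -0.14 and 0.08, Th between -0.22 and 0.25 and Atr between -0.06 and 0.15. Genes at few CPM, such as Myc, Sox10 and Ifit3, are limited by depth.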
